A study of Homo sapiens with 6 samples.

Results

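Transforming growth factor beta (TGF-β) signalling was followed through 10 genes in 3 human hepatocellular carcinoma cell lines. The genes were the ligands TGFB1 and TGFB2, the receptors TGFBR1 and TGFBR2, the signal transducers SMAD2, SMAD3 and SMAD4, the inhibitory SMAD6 and SMAD7, and the co-repressor SKIL. They were chosen by symbol, as the rows whose gene name equals one of these symbols, and make up 10 of the 19089 gene names with reads in any library. All 10 had reads in each of the 6 libraries.

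The 6 libraries came from Hep3B, HCCLM3 and MHCC97H, each as polyadenylated mRNA (mRNA) and as polyadenylated mRNA bound to ribosomes carrying a nascent chain (RNC-mRNA), which is the mRNA under translation. Each library pooled equal amounts of 3 cultures, which leaves 1 library for each line and fraction and no replicates. The labels name no added ligand, inhibitor or genetic change for any line. Hep3B grew in MEM with 15% fetal bovine serum and sodium pyruvate, and HCCLM3 and MHCC97H in DMEM with 10% serum. A difference between Hep3B and the other lines therefore cannot be told apart from one between media. Penicillin, streptomycin and ciprofloxacin were in every medium. HCCLM3 and MHCC97H are related lines of high metastatic capacity with a shared parental line, and they are not independent of each other. The deposited tables name the fractions by the letters A and C, read here as mRNA and RNC-mRNA. With the letters the other way round, all ratios of RNC-mRNA to mRNA would change sign.

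TGF-β ligands are secreted in a latent form and, once released, bind the receptor kinase TGFBR2, which recruits and phosphorylates TGFBR1. TGFBR1 phosphorylates SMAD2 and SMAD3, which join SMAD4 and enter the nucleus, while SMAD6 and SMAD7 oppose the receptors and SKIL represses SMAD targets. In liver tumours the pathway is known for growth arrest in early stages and for migration and epithelial-mesenchymal transition in later ones.

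The tables held 119086844 to 147788269 reads per library, and the 10 genes took 0.0587 to 0.117% of them. Levels are in RPKM, reads scaled by gene-model length and library size, as deposited. Intervals and ± values are 95% limits from read counting alone and leave out variation between cultures. Of 8 hepatocyte markers, all reached 1 RPKM in both Hep3B libraries, with a summed level of 11300 RPKM in mRNA and 18700 in RNC-mRNA. In HCCLM3 and MHCC97H 4 to 7 of them did, the sum was 21.1 to 39.7 RPKM, and no marker was at 0. Of 9 stellate cell and fibroblast markers at most 2 reached 1 RPKM in a library, and their sum was 13.1 to 14.9 RPKM in Hep3B and 2.18 to 6.36 RPKM in the other lines. Most of the Hep3B sum came from PDGFRB (9.02 RPKM in mRNA, 11.1 in RNC-mRNA) and PDGFRA (3.3 and 1.17). COL1A2 and ACTA2 were also higher in Hep3B. COL1A1, COL3A1, LRAT, DCN and LUM were lower there than in the other lines in both fractions. Of 6 endothelial markers at most 2 reached 1 RPKM. Their sum was 0.527 to 0.714 RPKM in Hep3B, where VWF, KDR and TEK were at 0, and 2.7 to 8.78 RPKM elsewhere. Leukocyte and Kupffer cell markers summed to 48.3 to 84.2 RPKM, and at most 2 of the 7 reached 1 RPKM in a library. CD68, which epithelial cells also carry in lysosomes, made up 46 to 81.6 RPKM of that sum, and MARCO or CD3E was at 0 in some libraries. The part of these differences in the results on the pathway was not tested.

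**Figure D1:**
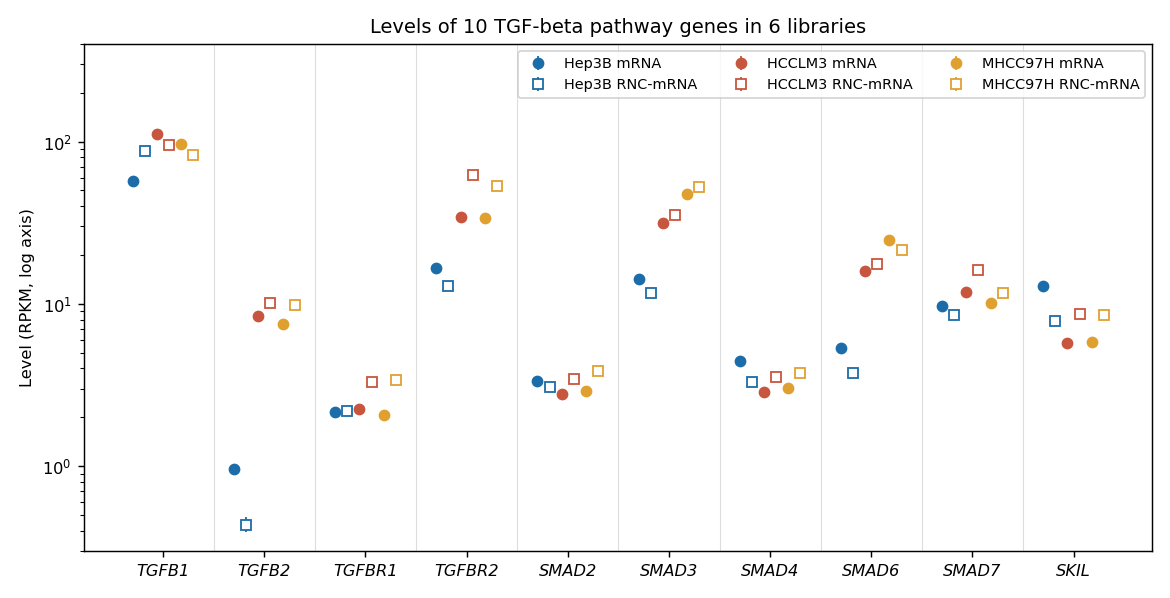
Level in RPKM on a log axis of each of the 10 genes in the 6 libraries, filled circles for mRNA and open squares for RNC-mRNA, with 95% counting intervals mostly smaller than the symbols. TGFB1 is the highest of the 10 in every library, and TGFB2 spans the widest range, from 0.436 to 10.1 RPKM.

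Among the ligands, TGFB1 was the most abundant of the 10 genes in all 6 libraries. It stood at 57, 111 and 97.3 RPKM in the mRNA of Hep3B, HCCLM3 and MHCC97H. In RNC-mRNA it stood at 87.7, 94.9 and 82.2 RPKM in the same order. The mRNA levels of the 2 metastatic lines thus lay above that of Hep3B, while the RNC-mRNA levels of the 3 lines lay close together as deposited. The log2 ratio over Hep3B was 0.96 ± 0.02 for HCCLM3 and 0.77 ± 0.02 for MHCC97H in mRNA. In RNC-mRNA it was 0.11 ± 0.02 and -0.09 ± 0.02. The value for HCCLM3 turned to -0.16 with median ratio scaling and -0.02 with upper quartile scaling. That for MHCC97H moved to -0.39 and -0.25 with the same scalings. In these bulk libraries a smaller share of cells expressing a gene and less of its RNA per cell cannot be told apart.

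TGFB2 encodes a ligand of the same family that binds TGFBR2 efficiently only with the help of a co-receptor. Its level was 0.955, 8.36 and 7.55 RPKM in the mRNA of Hep3B, HCCLM3 and MHCC97H, from 641, 5490 and 5449 reads. In RNC-mRNA it was 0.436, 10.1 and 9.87 RPKM in the same order, from 346, 7508 and 7509 reads. TGFB2 was the lowest of the 10 genes in both Hep3B libraries, and no interval of a Hep3B library overlapped that of another line. The level in mRNA was 8.02-fold higher in HCCLM3 than in Hep3B and 7.25-fold higher in MHCC97H (log2 2.86 ± 0.11). In RNC-mRNA the difference was 19-fold (log2 4.25 ± 0.13) and 18.6-fold (log2 4.22 ± 0.13). These folds are of RPKM + 0.1 and understate the change of a gene as low as TGFB2 was in Hep3B. TGFB1 exceeded TGFB2 by 59.7-fold in RPKM in Hep3B mRNA, 13.3-fold in HCCLM3 mRNA and 12.9-fold in MHCC97H mRNA. The same ratio in RNC-mRNA was 201, 9.42 and 8.33. TGFB3, the remaining ligand of the group, was under 1 RPKM in all 6 libraries, between 0.138 RPKM in HCCLM3 RNC-mRNA and 0.528 RPKM in Hep3B mRNA.

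The sequence before the start of TGFB2 is shown because this gene had the widest range of the 10 over the libraries. It is the 250 bases upstream of the annotated start, from RefSeq on GRCh38.p14, chr1:218345086-218345335, plus strand, 5′ to 3′. Capitals mark the SMAD-binding element CAGACA, searched on both strands (reverse complement TGTCTG), whose first base lies 53 bases before the start.
TGFB2 upstream: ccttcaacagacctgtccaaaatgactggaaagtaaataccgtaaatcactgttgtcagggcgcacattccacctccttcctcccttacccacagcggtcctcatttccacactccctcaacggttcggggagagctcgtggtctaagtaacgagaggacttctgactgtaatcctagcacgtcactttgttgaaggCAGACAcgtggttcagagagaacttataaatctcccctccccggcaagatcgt
CAGACA or TGTCTG occurs in 13.6% of 35116 such windows in the RefSeq table, so the match is a description and no evidence of binding.

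The receptors differed in their behaviour. TGFBR2, the kinase that binds the ligand, stood at 16.7, 34.1 and 33.9 RPKM in the mRNA of Hep3B, HCCLM3 and MHCC97H. In RNC-mRNA its level was 12.9, 62.6 and 53.6 RPKM in the same order. Hep3B was the lowest line in both fractions, and the gap was wider in RNC-mRNA. TGFBR2 mRNA was 2.03-fold higher in HCCLM3 (log2 1.02 ± 0.03) and 2.02-fold higher in MHCC97H (1.02 ± 0.03) than in Hep3B. In RNC-mRNA it was 4.82-fold (2.27 ± 0.03) and 4.13-fold (2.05 ± 0.03) higher, or 1.99 and 1.76 on the log2 scale with median ratio scaling, under 4-fold.

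TGFBR1, the partner kinase that phosphorylates SMAD2 and SMAD3, was low throughout, from 2.06 RPKM in MHCC97H mRNA to 3.39 in MHCC97H RNC-mRNA. Its mRNA stood at 2.17 RPKM in Hep3B and 2.25 in HCCLM3, and its RNC-mRNA at 2.18 and 3.3. The mRNA log2 ratio over Hep3B was 0.05 ± 0.09 for HCCLM3 and -0.07 ± 0.09 for MHCC97H, both within counting error of 0. In RNC-mRNA it was 0.58 ± 0.08 and 0.62 ± 0.07, or 0.31 and 0.34 with median ratio scaling. TGFBR2 exceeded TGFBR1 in every library. The ratio of their RPKM values was 7.71, 15.2 and 16.4 in the mRNA of Hep3B, HCCLM3 and MHCC97H, and 5.93, 19 and 15.8 in RNC-mRNA.

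The receptor-regulated SMADs were a pair of a steady and a variable gene, like the receptors. SMAD2 stood at 3.33, 2.78 and 2.9 RPKM in the mRNA of Hep3B, HCCLM3 and MHCC97H and at 3.09, 3.42 and 3.85 RPKM in their RNC-mRNA, the narrowest range of the 10 genes (0.46 on the log2 scale). SMAD3 stood at 14.2, 31.7 and 47.8 RPKM in the mRNA of Hep3B, HCCLM3 and MHCC97H. Its RNC-mRNA level was 11.7, 35.2 and 52.8 RPKM in the same order. The lines therefore ranked Hep3B, HCCLM3, MHCC97H in both fractions, with no overlap of counting intervals. SMAD3 was 2.22-fold (HCCLM3) and 3.35-fold (MHCC97H) higher than in Hep3B in mRNA, and 3-fold and 4.49-fold higher in RNC-mRNA. The MHCC97H value in RNC-mRNA was 2.17 on the log2 scale, or 1.88 with median ratio scaling. SMAD3 exceeded SMAD2 by 4.28-fold in RPKM in Hep3B mRNA, 11.4-fold in HCCLM3 mRNA and 16.5-fold in MHCC97H mRNA, and by 3.78, 10.3 and 13.7-fold in RNC-mRNA.

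SMAD4, the common partner of both, stood at 4.43, 2.85 and 3.03 RPKM in mRNA and at 3.32, 3.54 and 3.77 RPKM in RNC-mRNA, with Hep3B the highest line in mRNA and the lowest in RNC-mRNA as deposited. Its log2 ratio over Hep3B in mRNA was -0.62 for HCCLM3 and -0.53 for MHCC97H. In RNC-mRNA the ratios were 0.09 and 0.18 as deposited and -0.18 and -0.11 with median ratio scaling, so the direction of this small difference depends on the scaling. SMAD2 and SMAD4 could not be ranked against each other by their counting intervals in 4 of the 6 libraries, those of HCCLM3 and MHCC97H.

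SMAD6, an inhibitory SMAD that acts mainly on bone morphogenetic protein (BMP) receptors, ranked the lines in the same order as SMAD3. It stood at 5.35, 15.9 and 24.7 RPKM in the mRNA of Hep3B, HCCLM3 and MHCC97H. In RNC-mRNA it was at 3.76, 17.7 and 21.6 RPKM in the same order. Both Hep3B libraries lay below the other 4. SMAD6 was 2.94-fold (HCCLM3) and 4.56-fold (MHCC97H) higher than in Hep3B in mRNA, and 4.61-fold and 5.61-fold higher in RNC-mRNA. With median ratio scaling the RNC-mRNA value of HCCLM3 fell under 4-fold (log2 1.93), while that of MHCC97H did not (2.20).

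SMAD7, the inhibitory SMAD that brings ubiquitin ligases to TGFBR1, varied less. Its level was 9.76, 11.8 and 10.1 RPKM in the mRNA of Hep3B, HCCLM3 and MHCC97H, and 8.54, 16.1 and 11.6 RPKM in RNC-mRNA. The largest log2 ratio over Hep3B was 0.91, for HCCLM3 in RNC-mRNA. The order of the inhibitory pair differed between lines. SMAD7 exceeded SMAD6 in Hep3B, with an RPKM ratio of 1.82 in mRNA and 2.27 in RNC-mRNA. SMAD6 exceeded SMAD7 in HCCLM3 (SMAD7 over SMAD6 0.739 and 0.91) and in MHCC97H (0.407 and 0.536), and all 6 counting intervals left out 1.

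SMAD3 and SMAD6 lie next to each other on chromosome 15 among genes that reached 1 RPKM, in the RefSeq order on GRCh38.p14. Their upstream windows of 250 bases are shown because these neighbouring genes were both higher in the metastatic lines. In the SMAD3 window, at one of its annotated starts, chr15:67065352-67065601, plus strand, capitals mark 2 copies of GGCGCC, a GC-rich element bound by SMADs. In the SMAD6 window, chr15:66701986-66702235, plus strand, capitals mark GTCTAGAC, the palindromic SMAD box, whose first base lies 12 bases before the start.
SMAD3 upstream: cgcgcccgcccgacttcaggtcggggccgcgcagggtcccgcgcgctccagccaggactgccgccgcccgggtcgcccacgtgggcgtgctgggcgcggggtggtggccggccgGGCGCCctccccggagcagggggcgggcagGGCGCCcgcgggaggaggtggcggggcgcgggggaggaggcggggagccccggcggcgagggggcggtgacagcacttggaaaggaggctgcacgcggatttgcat
SMAD6 upstream: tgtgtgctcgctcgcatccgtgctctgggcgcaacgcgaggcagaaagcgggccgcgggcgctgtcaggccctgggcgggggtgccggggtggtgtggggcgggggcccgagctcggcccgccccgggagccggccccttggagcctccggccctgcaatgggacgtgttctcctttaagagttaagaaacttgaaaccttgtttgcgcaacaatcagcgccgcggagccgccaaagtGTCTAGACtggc
GGCGCC occurs in 16.4% of 35116 such windows and GTCTAGAC in 0.182% (64 windows), each being its own reverse complement. The 10 genes had 25 windows, 5 of them of SMAD3. GTCTAGAC was in that of SMAD6 alone, and CAGACA or TGTCTG in 4 windows, of TGFB2, TGFBR1 and SMAD3. GGCGCC was in 6 windows, of TGFBR1, SMAD2, SMAD3, SMAD4 and SKIL, and in 1 of the 5 windows of SMAD3. No window shown holds 2 kinds of motif. Windows with no match say only that these letters are not in them.

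The chromosomal surroundings of the SMADs were described after the values were seen. On chromosome 15, the 16 genes around SMAD6 and SMAD3 had a median mRNA log2 ratio over Hep3B of -0.46 in HCCLM3 and -0.13 in MHCC97H. ITGA11, an integrin subunit gene, was the only one of them more than 4-fold higher, and none was as much lower. SMAD2, SMAD7 and SMAD4 share chromosome 18. The 28 genes around them had medians of 0.14 and 0.06, with LIPG and RAB27B more than 4-fold higher and none more than 4-fold lower.

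**Figure D2:**
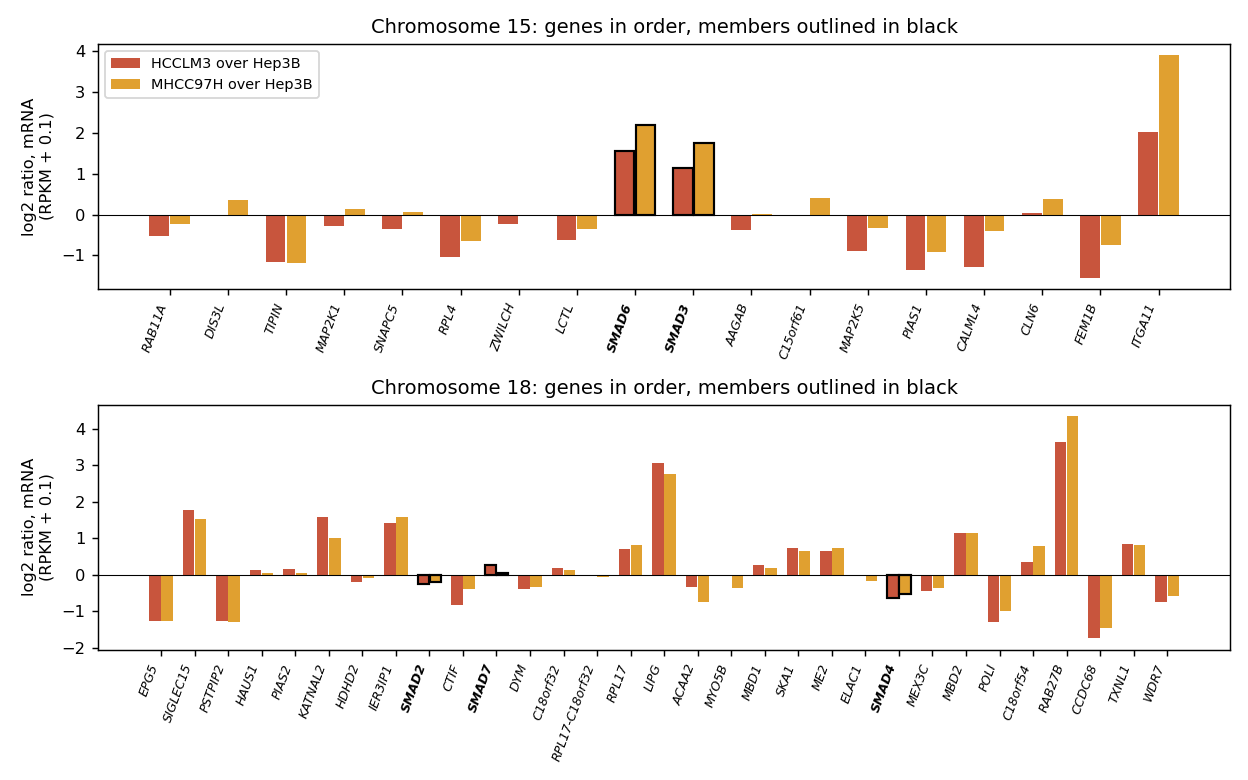
Log2 ratio of (RPKM + 0.1) in mRNA of HCCLM3 (red) and MHCC97H (orange) over Hep3B for the genes around SMAD6 and SMAD3 on chromosome 15 (top) and SMAD2, SMAD7 and SMAD4 on chromosome 18 (bottom), in chromosomal order with the SMADs outlined. SMAD6 and SMAD3 (1.56 and 1.15 in HCCLM3, 2.19 and 1.74 in MHCC97H) stand among neighbours with a median of -0.46 and -0.13.

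SKIL, also called SnoN, encodes a co-repressor of SMAD targets. It stood at 12.9, 5.74 and 5.84 RPKM in the mRNA of Hep3B, HCCLM3 and MHCC97H. Its RNC-mRNA level was 7.84, 8.61 and 8.55 RPKM in the same order. SKIL was thus higher in Hep3B in mRNA and at a similar level in the RNC-mRNA of the 3 lines. The mRNA was 2.22-fold lower in HCCLM3 and 2.19-fold lower in MHCC97H than in Hep3B. The RNC-mRNA log2 ratios were 0.13 and 0.12 as deposited and -0.14 and -0.17 with median ratio scaling.

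Counted together, 1 of the 10 genes was at least 4-fold higher in HCCLM3 than in Hep3B in mRNA (TGFB2), where 8.5% of all genes reaching 1 RPKM were. In MHCC97H mRNA 2 were (TGFB2 and SMAD6), against 8.16% of all genes. In RNC-mRNA 3 were higher in HCCLM3 (TGFB2, TGFBR2 and SMAD6; 11.1% of all genes), and 4 in MHCC97H, where SMAD3 joined them (11% of all genes). For so few genes the mRNA shares of 1 in 10 and 2 in 10 are near the background. No excess is read from the RNC-mRNA counts of 3 and 4, which rest on the same few genes and fell with median ratio scaling. In mRNA 1 of the 10 was higher in both lines at once (7.19% of all genes), and in RNC-mRNA 3 were (9.63%). None of the 10 was 4-fold lower in either line or in both, which held for 8.74% of all genes in mRNA and 8.78% in RNC-mRNA for both lines. In single lines the share lower was 9.92% (HCCLM3) and 9.44% (MHCC97H) of all genes in mRNA and 9.74% and 9.55% in RNC-mRNA. Beside such shares, the absence of lower genes among 10 is not read as a result. The median log2 ratio of the 10 genes was 0.62 in HCCLM3 and 0.41 in MHCC97H in mRNA, beside -0.03 and -0.01 over all genes. In RNC-mRNA it was 0.74 and 0.53, beside 0.25 and 0.26. Median ratio scaling moved the median of 9662 genes in RNC-mRNA from 0.24 to -0.03 for HCCLM3 and from 0.25 to -0.04 for MHCC97H. With it, 1 of the 10 was 4-fold higher in HCCLM3 RNC-mRNA and 2 in MHCC97H RNC-mRNA. The shares of all genes above are for the deposited scaling and are no background for these 2 counts. No difference between lines has a test, since each compares single libraries.

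**Figure D3:**
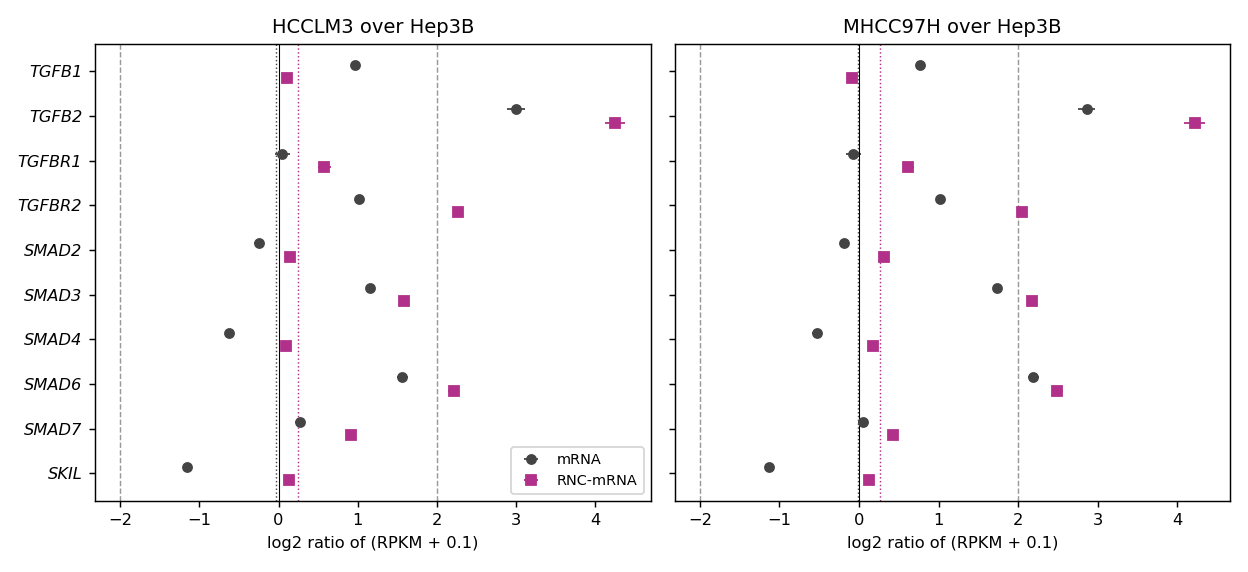
Log2 ratio of (RPKM + 0.1) over Hep3B for HCCLM3 (left) and MHCC97H (right), circles for mRNA and squares for RNC-mRNA, with 95% counting intervals, dotted lines at the median of all genes and dashed lines at 4-fold. TGFB2 lies past 4-fold in both fractions of both lines, and TGFB1 is the only gene whose RNC-mRNA value lies below its mRNA value.

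Between the related lines HCCLM3 and MHCC97H the genes differed little. None of the 10 was 4-fold apart in either fraction, and of all genes 0.222% were higher and 0.333% lower in HCCLM3 mRNA, and 0.325% and 0.369% in RNC-mRNA. SMAD3 and SMAD6 were lower in HCCLM3, with mRNA log2 ratios of -0.59 and -0.63 and RNC-mRNA log2 ratios of -0.58 and -0.28. SMAD7 was higher in HCCLM3, at 0.22 and 0.47.

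Within a line, the ratio of RNC-mRNA to mRNA compares a gene's level on translating ribosomes with its level in all polyadenylated mRNA. In Hep3B 7 of the 9 genes at 1 RPKM in both fractions lay below 0 on the log2 scale and 2 above, with a median of -0.28, beside -0.03 over 10825 genes. In HCCLM3 9 of 10 lay above 0 and 1 below, with a median of 0.30, beside 0.17 over 10930 genes. In MHCC97H 8 of 10 lay above 0, with a median of 0.34, beside 0.16 over 10987 genes. Every ratio of the genes at 1 RPKM in both fractions lay between 0.5 and 2, so none of the 10 was counted in any line. TGFB2 in Hep3B, at 0.436 RPKM in RNC-mRNA and 0.955 RPKM in mRNA, was under 1 RPKM in both and could not be counted. Among all genes 1.89% had a ratio of at least 2 and 7.73% of at most 0.5 in Hep3B, 0.842% and 2.47% in HCCLM3, and 0.464% and 2.68% in MHCC97H.

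TGFB1 was the only one of the 10 with its highest ratio in Hep3B. Its log2 ratio was 0.62 ± 0.02 in Hep3B, above 90.3% of all genes, and -0.23 ± 0.02 in HCCLM3 and -0.24 ± 0.02 in MHCC97H, above 18.5% and 19.5%. TGFBR2 did the opposite, at -0.37 ± 0.04 in Hep3B against 0.87 ± 0.02 for HCCLM3 and 0.66 ± 0.02 for MHCC97H. The HCCLM3 value exceeded that of 98.1% of all genes. SKIL stood at -0.71 ± 0.04 in Hep3B against 0.58 ± 0.05 for HCCLM3 and 0.54 ± 0.05 for MHCC97H. SMAD4 stood at -0.41 ± 0.06 in Hep3B and at 0.30 ± 0.06 in each of the other lines. For TGFB2 the values were -0.98 ± 0.16 in Hep3B, where it was under 1 RPKM in both fractions, and 0.27 ± 0.05 and 0.38 ± 0.05 in HCCLM3 and MHCC97H. In each of these 5 genes the sign in Hep3B was opposite to that in both other lines, also with median ratio or upper quartile scaling. Median ratio scaling moved the median of 9662 genes from -0.02 to 0.13 in Hep3B, from 0.18 to 0.05 in HCCLM3 and from 0.16 to 0.04 in MHCC97H.

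The remaining genes had smaller spreads. TGFBR1 was at 0.01 ± 0.08 in Hep3B, within counting error of equal levels, and at 0.53 ± 0.08 and 0.69 ± 0.08 in HCCLM3 and MHCC97H. SMAD6 was below 0 in Hep3B (-0.50) and MHCC97H (-0.20) and above it in HCCLM3 (0.15). SMAD2, SMAD3 and SMAD7 lay between -0.28 and -0.10 in Hep3B and between 0.14 and 0.45 in the other lines, again with opposite signs in Hep3B and the other lines. With median ratio scaling SMAD2 turned to 0.05 in Hep3B, SMAD7 stood at -0.04 there, and SMAD3 at 0.03 and 0.02 in HCCLM3 and MHCC97H, so the opposite signs of these 3 genes were not clear of counting error.

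**Figure D4:**
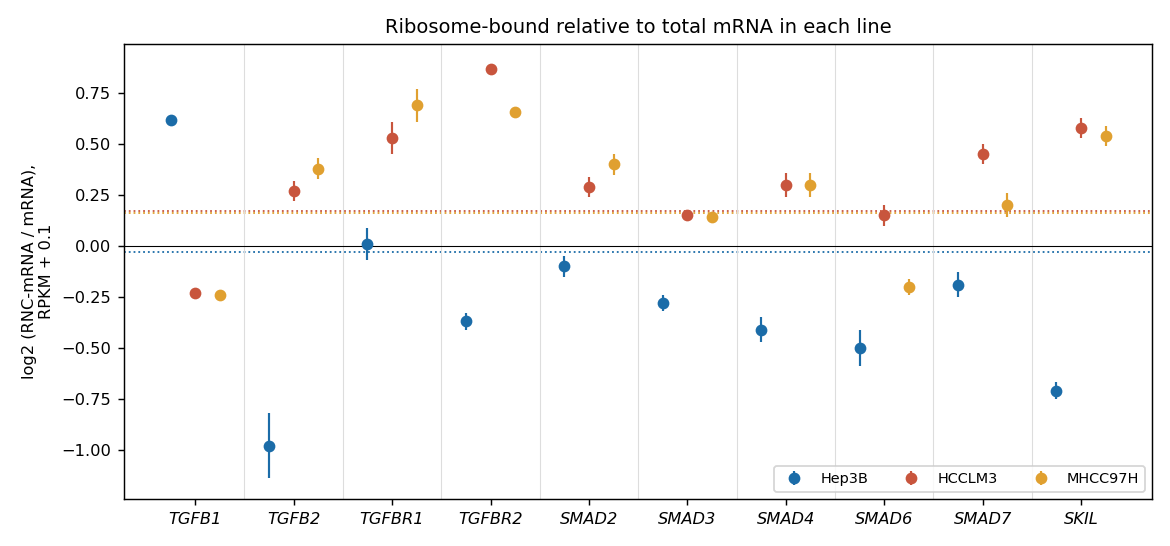
Log2 ratio of (RPKM + 0.1) in RNC-mRNA over mRNA for each of the 10 genes in Hep3B (blue), HCCLM3 (red) and MHCC97H (orange), with 95% counting intervals and dotted lines at the median of all genes in each line. TGFB1 is highest in Hep3B (0.62), while the other 9 genes are lowest there.

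The same values can be read as the line difference in RNC-mRNA minus that in mRNA. Over 9662 genes at 1 RPKM in all 6 libraries, the median of this quantity was 0.17 for HCCLM3 and 0.18 for MHCC97H. SKIL had 1.28 ± 0.06 and 1.25 ± 0.06, above 95.4% and 95.7% of those genes. TGFBR2 had 1.25 ± 0.05 and 1.03 ± 0.05, and TGFB2, not itself among the 9662, had 1.24 ± 0.17 and 1.36 ± 0.17. TGFB1 had -0.85 ± 0.03 and -0.86 ± 0.03, above 3.2% and 3.63%. The other 6 genes lay between 0.30 and 0.71. Both differences share the Hep3B libraries and are not independent.

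Over the 3 lines taken as replicates, RNC-mRNA was tested against mRNA by edgeR's quasi-likelihood test with the line as a block, on 11905 genes with a mean of at least 1 RPKM. After Benjamini-Hochberg adjustment none of the 10 genes rose and none fell, where 0.0672% of all genes rose and 2.65% fell. At an unadjusted p under 0.05 none of the 10 passed either, against 28.1% of all genes, and DESeq2 called none. TGFBR1 came nearest, with a log2 fold change of 0.39 ± 0.15 (SE, n = 3 lines) and an edgeR adjusted p of 0.182. Its ratio was above 0 in 3 of 3 lines, but in Hep3B by 0.01 ± 0.08 (95% counting limits), within counting error of 0. The other lines are related to each other. TGFB1 had 0.01 ± 0.28 (adjusted p = 0.988 in edgeR) and SKIL 0.10 ± 0.25 (adjusted p = 0.811 in edgeR), and their SEs were exceeded among the 10 genes by that of TGFB2 alone (-0.18 ± 0.29). The median over the 10 genes was 0.07, beside 0.04 over all genes.

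This outcome depended on Hep3B. Without it, in edgeR, 7 of the 10 genes rose (TGFB2, TGFBR1, TGFBR2, SMAD2, SMAD4, SMAD7 and SKIL) and TGFB1 fell, where 35.2% of all genes rose and 33.6% fell. TGFBR2 then had a log2 fold change of 0.64 (edgeR adjusted p = 3.60e-07) and SKIL 0.44 (edgeR adjusted p = 9.96e-06). TGFB1 had -0.36 (edgeR adjusted p = 4.87e-05). That fit rests on 2 related lines. Whether the ratio in Hep3B differs from that in the other lines was not tested.

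The rest of the pathway was described through 92 other genes in 7 roles. In mRNA 10 of the 71 that reached 1 RPKM were at least 4-fold higher in HCCLM3 than in Hep3B and 16 were lower, and in MHCC97H 10 and 16 of 72. Of all genes 8.5% were higher and 9.92% lower in HCCLM3, and 8.16% and 9.44% in MHCC97H. The median log2 ratios of the list were -0.26 and -0.23, beside -0.03 and -0.01 over all genes. In RNC-mRNA 15 of 72 were higher and 11 lower in HCCLM3, with a median of 0.41, and 13 and 11 of 70 in MHCC97H, with a median of 0.19. The medians of all genes were 0.25 and 0.26, with 11.1% higher and 9.74% lower in HCCLM3 and 11% and 9.55% in MHCC97H. Of 72 genes, 9 were higher and 15 lower in both lines in mRNA, beside 7.19% and 8.74% of all genes. In RNC-mRNA 13 of 72 were higher and 10 lower in both lines, beside 9.63% and 8.78%. In both lines and both fractions, 8 were higher (BMP6, CD109, CDKN1A, ID3, LTBP4, MMP2, SMURF1 and SNAI1) and 9 lower (BMP8A, CHRD, FST, FURIN, GDF15, ID4, INHBE, LTBP2 and TGIF2). The share of all genes that met this in both fractions is not given here, so these 2 counts have no background.

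**Figure D5:**
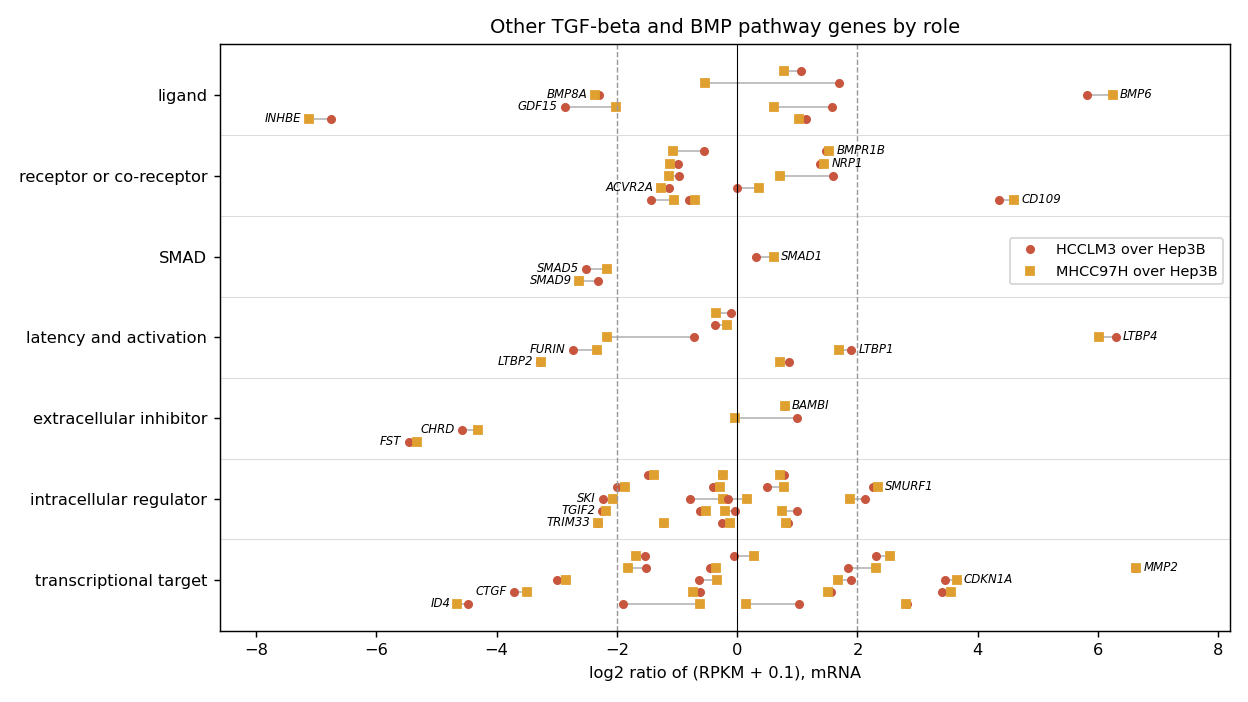
Log2 ratio of (RPKM + 0.1) in mRNA of HCCLM3 (circles) and MHCC97H (squares) over Hep3B for the other pathway genes that reached 1 RPKM in the mRNA of a line, by role, with grey lines joining the values of a gene and dashed lines at 4-fold. Genes with the widest differences in each role are named, among them INHBE (-6.75 and -7.12) and LTBP4 (6.29 and 6.02), and the values of a gene lie close together in most cases.

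Among ligands of the wider family, INHBE, an activin subunit gene of liver, stood at 80.4, 0.649 and 0.479 RPKM in the mRNA of Hep3B, HCCLM3 and MHCC97H. GDF15, a stress-induced family member, stood at 129, 17.6 and 32 RPKM. BMP6, the BMP that sets hepcidin in liver, went the other way, at 0.116, 12.1 and 16.2 RPKM. Of 8 ligand genes at 1 RPKM in mRNA, 1 was higher and 3 lower in each metastatic line. The background for this and every role below was 8.5% of all genes higher and 9.92% lower in HCCLM3 mRNA. In MHCC97H mRNA it was 8.16% and 9.44%. With so few genes in a role, no count is read as particular to that role.

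Among receptors and co-receptors 1 gene was higher and none lower in mRNA, in HCCLM3 of 10 and in MHCC97H of 11. That gene was CD109, a membrane protein that binds TGF-β and dampens its receptors, at 0.235, 6.79 and 8 RPKM in the mRNA of Hep3B, HCCLM3 and MHCC97H. NRP1, a co-receptor, stood at 11.5, 29.8 and 31.6 RPKM in mRNA and at 4.65, 28.6 and 31.1 in RNC-mRNA. The BMP receptor BMPR1B had mRNA log2 ratios of 1.48 and 1.53, and the activin receptor ACVR2A of -1.14 and -1.27, all under 4-fold.

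Of the 3 SMADs of the BMP branch, SMAD5 and SMAD9 were lower in both metastatic lines in mRNA. SMAD5 stood at 14.2, 2.41 and 3.09 RPKM in the mRNA of Hep3B, HCCLM3 and MHCC97H, but at 6.81, 3.2 and 4.06 in RNC-mRNA, under 4-fold. SMAD9 stood at 2.27, 0.377 and 0.282 RPKM in mRNA. SMAD1 stood at 2.78, 3.49 and 4.29 RPKM in mRNA, with log2 ratios of 0.32 and 0.61.

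Genes of latency and activation were divided. LTBP4, which tethers latent TGF-β1 to the matrix, stood at 0.318, 32.6 and 27.1 RPKM in the mRNA of Hep3B, HCCLM3 and MHCC97H, and at 0.094, 13.8 and 9.96 in RNC-mRNA. LTBP1, another latency binding protein gene, stood at 3.32, 12.7 and 11 RPKM in mRNA. LTBP2, a related matrix protein gene, was at 5.34, 0.465 and 0.466 RPKM, and FURIN, the protease that cleaves the TGF-β precursor, at 157, 23.6 and 31.2. Of 8 such genes in mRNA, HCCLM3 had 1 higher and 2 lower, and MHCC97H had 1 higher and 3 lower. Over all genes 8.5% were higher and 9.92% lower in HCCLM3, and 8.16% and 9.44% in MHCC97H.

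Of 4 extracellular inhibitors at 1 RPKM in mRNA, 2 were lower and none higher in each line. Over all genes 9.92% were lower in HCCLM3 and 9.44% in MHCC97H, and 8.5% and 8.16% were higher. FST (follistatin, which traps activin) stood at 5.23, 0.0212 and 0.0331 RPKM in the mRNA of Hep3B, HCCLM3 and MHCC97H. CHRD (chordin, which traps BMPs) stood at 7.23, 0.205 and 0.272 RPKM. BAMBI, a pseudoreceptor, stood at 32.2, 55.7 and 55.8 RPKM, log2 0.79 in each line.

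Of 19 intracellular regulators in mRNA, HCCLM3 had 2 higher and 4 lower, and MHCC97H had 1 higher and 3 lower. The higher gene in both was SMURF1, a ubiquitin ligase that works with SMAD7, at 9.78, 47.4 and 49.9 RPKM in the mRNA of Hep3B, HCCLM3 and MHCC97H. SKI, the close relative of SKIL, stood at 34.1, 7.19 and 8.03 RPKM in mRNA and at 28.3, 7.93 and 7.52 in RNC-mRNA. SKI was thus lower in the metastatic lines in both fractions. TRIM33, a SMAD4 regulator, stood at 15.2 RPKM in Hep3B mRNA and 2.95 in each of the others, and the co-repressor TGIF2 at 26.9, 5.61 and 5.85.

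Transcriptional targets moved both ways. Of 19 at 1 RPKM in mRNA, 5 were higher and 3 lower in HCCLM3, and 6 and 3 in MHCC97H. Over all genes 8.5% were higher and 9.92% lower in HCCLM3, and 8.16% and 9.44% in MHCC97H. The median log2 ratios of the targets were -0.06 and 0.14. CDKN1A, the cell cycle inhibitor p21, stood at 1.98, 22.8 and 26 RPKM in the mRNA of Hep3B, HCCLM3 and MHCC97H. MMP2, a matrix protease, was nearly absent in Hep3B mRNA at 0.00805 RPKM and stood at 10.5 and 10.6 RPKM in the other lines. CTGF, a matricellular protein gene, was at 80.9, 6.07 and 7.08 RPKM, and ID4, an inhibitor of helix-loop-helix factors, at 4, 0.0854 and 0.0627.

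In the edgeR test over the 3 lines, 70 of the 92 pathway genes were tested. None rose and 2 fell in RNC-mRNA, a share near the 2.65% of all genes that fell. An unadjusted p under 0.05 in edgeR was reached by 26 of the 70, beside 28.1% of all genes. LTBP4 had a log2 fold change of -1.51 ± 0.11 (SE, edgeR adjusted p = 0.0389) and CHRD of -1.56 ± 0.20 (SE, edgeR adjusted p = 0.0447). Each was below 0 in 3 of 3 lines. CHRD was at most 0.272 RPKM in HCCLM3 and MHCC97H and passed the filter through Hep3B alone. LTBP4 was at most 0.318 RPKM in Hep3B and passed it through the other lines. As HCCLM3 and MHCC97H are related, the 3 lines are not 3 independent replicates.

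The likeness of profiles was measured as the root mean square difference of log2(RPKM + 0.1), centred per gene, over the 6 libraries. Between the 10 genes, SMAD2 and SMAD4 were closest (0.14), followed by TGFBR1 with SMAD2 and SMAD4 with SKIL (0.19 each). Genes that vary little come out close by this measure, and SMAD2, SMAD4 and TGFBR1 had log2 ranges of 0.46, 0.62 and 0.69. SMAD3 and SMAD6 were 0.25 apart. Among 11905 genes, the profiles most like that of TGFB2 were those of DOCK11 (0.10), PITPNC1 (0.10) and GATM (0.13). DOCK11, for one, stood at 0.305, 3.46 and 3.17 RPKM in the mRNA of Hep3B, HCCLM3 and MHCC97H. Most like SMAD6 were PIAS3 (0.09), FOXC1 (0.11) and PPP1R18 (0.12). PIAS3, a SUMO ligase gene, stood at 4.76, 15.7 and 20.9 RPKM in mRNA and 3.65, 17.9 and 20.8 in RNC-mRNA. Over 6 libraries from 3 lines, a likeness of this kind describes how close centred levels lie, and no link between genes was tested.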

How the data were processed

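Polyadenylated mRNA and RNC-mRNA of 3 cell lines were sequenced, 1 library per line and fraction. The labels' protocols name an NEBNext kit for library preparation. Per the submitters' processing notes, edgeR and the genome build hg19 were used, in roles they do not state. The sources used here name no aligner or counting program and do not say whether strand was used, so reads of overlapping genes cannot be told apart. The authors deposited counts of reads and RPKM for each gene and library, and a gene without reads has no line and was taken as 0.

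The deposited counts and RPKM imply gene-model lengths within 8.9e-09 of whole numbers, so RPKM is the count scaled by a length and a library total of the authors. Levels were taken as deposited, with exact Poisson 95% intervals of the count. Line differences and RNC-mRNA to mRNA ratios used log2 of (RPKM + 0.1), with a 95% half-width from the counts, in Python 3.11.15 with scipy 1.17.1. A line difference was counted from 4-fold with 1 RPKM in the higher library, and a fraction ratio from 2 or 0.5 with 1 RPKM in both. These compare single libraries and carry no p-value.

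RNC-mRNA against mRNA was tested on the counts with edgeR 4.0.16 (quasi-likelihood, TMM scaling, cell line as a block, genes with a mean of at least 1 RPKM, Benjamini-Hochberg, threshold 0.05), checked first on simulated data. Both fractions come from the same line, which is why the line is a pairing. Other settings were pseudocounts of 1 and 0.01 RPKM, no filter and one at 5 RPKM, other size thresholds, median ratio and upper quartile scaling, no line term, each line left out, and DESeq2 1.42.0.

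The 10 genes, the list of 92 pathway genes and the marker lists were chosen with earlier results of these data known. Named pathway genes were, in each role, up to 4 with the largest mRNA difference over Hep3B, taking the smaller of both lines where the sign agreed. For the 2 of the 10 genes with the widest range, the 3 most similar other genes were named. ID3 and SNAI1 appear only in the full count they belong to, and TGFB3, ITGA11, LIPG and RAB27B were named after their values were seen. Upstream windows and gene order come from RefSeq on GRCh38.p14, not the build of the counts, and all 10 genes matched by symbol. Intervals come from read counting alone. PCR copies are not independent molecules, so the intervals can be too narrow even for counting error.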

Additional observations from a re-analysis of the deposited data

Results flagged for a closer look

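In 8 of the 10 genes the deposited log2 ratio of RNC-mRNA to mRNA had one sign in Hep3B and the other sign in both HCCLM3 and MHCC97H, with counting intervals clear of 0. This held for 5 of them with median ratio scaling (6 with upper quartile scaling), and those 5 are given here. SMAD2, SMAD3 and SMAD7 met it as deposited and not with median ratio scaling. The difference between lines was not tested, as each value comes from a single pair of libraries. TGFB1 had 0.62 in Hep3B, -0.23 in HCCLM3 and -0.24 in MHCC97H. The other 4 genes were below 0 in Hep3B and above it elsewhere. TGFB2 had -0.98, 0.27 and 0.38, with 641 mRNA and 346 RNC-mRNA reads behind the Hep3B value. TGFBR2 had -0.37, 0.87 and 0.66. SMAD4 had -0.41, 0.30 and 0.30, and SKIL had -0.71, 0.58 and 0.54. The deposited median of all genes was -0.03 in Hep3B, 0.17 in HCCLM3 and 0.16 in MHCC97H. Over 9662 genes at 1 RPKM in every library, median ratio scaling put it at 0.13, 0.05 and 0.04, so the direction of the shift of the median depends on the scaling.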

How the results depend on the processing

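Of the recomputed values that answer a comparison, 211 stayed within counting error or within 1.5 times the main value and 39 moved. Of those of single genes 448 stayed, 142 moved, 6 newly passed the test without a turn in sign and 2 were counted as turned in sign. TGFB1 and TGFB2, which turned sign without Hep3B, newly passed the edgeR test there as well. Small values that crossed 0 were not all counted as turned. In every case below the cause was not tested unless the setting itself widens or narrows a threshold. Lowering the line threshold to 2-fold, which widens it by construction, gave 4 of the 10 genes higher and 1 lower in mRNA in each metastatic line over Hep3B, beside 18.7% higher and 21.3% lower of all genes in HCCLM3 and 18% and 19.6% in MHCC97H. It gave 22 (HCCLM3) and 17 (MHCC97H) pathway genes higher in mRNA and 26 lower in MHCC97H. In RNC-mRNA it gave 26 higher in each line and 18 lower in HCCLM3, beside 25.5% and 25.2% of all genes higher and 17.7% lower in HCCLM3. HCCLM3 against MHCC97H then had 3 pathway genes higher and 1 lower in mRNA, and 3 and 2 in RNC-mRNA. Of all genes 1.22% were higher and 1.34% lower in mRNA, and 1.38% and 1.57% in RNC-mRNA. Median ratio scaling left 1 of the 10 genes 4-fold higher in HCCLM3 RNC-mRNA and 2 in MHCC97H. A filter at 5 RPKM left 7 (HCCLM3) and 6 (MHCC97H) pathway genes lower in RNC-mRNA, and a pseudocount of 1 RPKM left 6 in MHCC97H. The shares of all genes with median ratio scaling, this filter or this pseudocount are not given here, so these counts have no background. A fraction ratio of 1.5 gave 1 gene higher and 1 lower in Hep3B, 1 higher in HCCLM3 and 2 in MHCC97H, beside 11.2% higher and 18.9% lower of all genes in Hep3B, 11.2% higher in HCCLM3 and 11.3% higher in MHCC97H. Read counts without division by length gave median ratios of 0.139 for TGFB2 over TGFB1, 0.0911 for TGFBR1 over TGFBR2, 5.61 for SMAD3 over SMAD2 and 0.852 for SMAD7 over SMAD6.

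In the test over the 3 lines, 8 genes of all rose and 316 fell with edgeR. Without an expression filter these were 431 and 1443, and with DESeq2 662 and 1300. Without the pairing by cell line edgeR called 0 and 0, with 873 at an unadjusted p under 0.05. Leaving out each line in turn, the genes that rose ranged from 3 (without HCCLM3) to 4187 (without Hep3B), and those that fell from 119 to 4005. Among the 10 genes the same range was 0 to 7 risen and 0 to 1 fallen. Without Hep3B the log2 fold changes of TGFB1 (-0.36) and TGFB2 (0.20) turned sign (ranges -0.36 to 0.20 and -0.43 to 0.20). Smaller values crossed 0 as well. SMAD3 went from -0.04 to 0.02 without Hep3B and to 0.11 without an expression filter. SMAD4 (0.03) and SKIL (0.10) fell to -0.04 and -0.07 without HCCLM3, and to -0.06 and -0.07 without MHCC97H. No call among the 10 genes was made in any other setting.

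Single libraries, related metastatic lines, different media and the reading of the fraction letters limit all of these results. The fewest reads behind a level of the 10 genes were 346, for TGFB2 in Hep3B RNC-mRNA.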
